A study of Mus musculus with 12 samples.

Results

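Myoblast fusion and adhesion genes are described here by 10 entries of the count table: Tmem8c (the table's symbol for Mymk, myomaker), Cdh15, Cdh2, Ncam1, Cdon, Boc, Jam2, Jam3, Dock1 and Dock5. They were selected by symbol from 24421 entries, with results of the comparison between genotypes already known, so their differences between the groups are given as descriptions with a standard error and no p-value. All 10 were among the 13937 genes that passed the filter on low counts. The samples were whole tibialis anterior muscles, from the front of the lower hindlimb, of 12 male mice aged 4 months. The control group, WT, was 6 C57Bl/6 mice. The other group was 6 mdx/mTR mice, whose name joins mdx, an allele of the dystrophin gene Dmd, with mTR, the mouse telomerase RNA, whose loss shortens telomeres over generations. No mouse analysed here carried only one of those alleles, so their contributions cannot be told apart. The labels do not give the generation of mTR loss, the background strain of the mutants or a date or batch, so no within-batch value can be given.

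Skeletal muscle fibres are syncytia built by the fusion of myoblasts, the progeny of satellite cells, which lie beside the fibres. Myoblasts recognise each other through cadherins and immunoglobulin-type adhesion proteins, the contact signals through Cdon and Boc and through Dock proteins that switch on the GTPase Rac, and the membranes are then merged by myomaker and its small partner myomerger (Mymx, listed as Gm7325). In healthy adult muscle fusion is rare, while dystrophic muscle degenerates and regenerates repeatedly.

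Library totals were 36903560 to 40981012 counts for the WT mice and 35136327 to 60330410 counts for the mutants, and 3 counts in a library corresponded to 0.0460 to 0.0837 CPM (the usual depth-normalised count, here on library sizes scaled by TMM, the trimmed mean of M-values). Dmd, which checks the labels, lay at 228 to 244 CPM in WT mice and at 35.2 to 56.4 CPM in the mutants, with no overlap. Terc, the mTR gene, had 2 counts in 1 WT library and 0 in every other library, so its loss could not be checked in these libraries. Of 8 genes of mature fibres, including Acta1 and Ckm, none was at 0, and their summed level was 188724 to 211397 CPM in WT mice and 146031 to 199005 CPM in the mutants, lowest in replicate 5. The library of mdx/mTR replicate 5 stood apart for the fusion and adhesion genes as well: it was the highest of its group for 8 of the 10, and results are therefore also given without it. Of all genes tested, 48.3% were called (edgeR, adjusted p below 0.05), 25.0% higher and 23.4% lower in mdx/mTR. The 2 groups of libraries did not overlap for 25.2% of genes, 12.6% with mdx/mTR above WT and 12.6% with it below. When libraries were scaled by their totals only, the median log2 fold change over all genes moved from 0.01 to 0.17, and every fold change that follows uses TMM unless another scaling is named.

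Across the 10 genes, 5 were called higher in mdx/mTR (Tmem8c, Cdh2, Ncam1, Boc and Dock5) and 2 lower (Cdh15 and Jam2), beside 25.0% and 23.4% of all genes (48.3% in either direction), and Cdon, Jam3 and Dock1 were not called. The groups did not overlap for 6 of the 10, the 5 higher genes and Jam2, beside 25.2% of all genes (12.6% in each direction). These counts describe genes that were chosen with this contrast known. The median log2 fold change of the 10 was 0.39, beside 0.01 over all genes tested. In whole muscle, a change in the number of cells of a type and a change in RNA per cell cannot be told apart, and this holds for every level below.

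**Figure D1:**
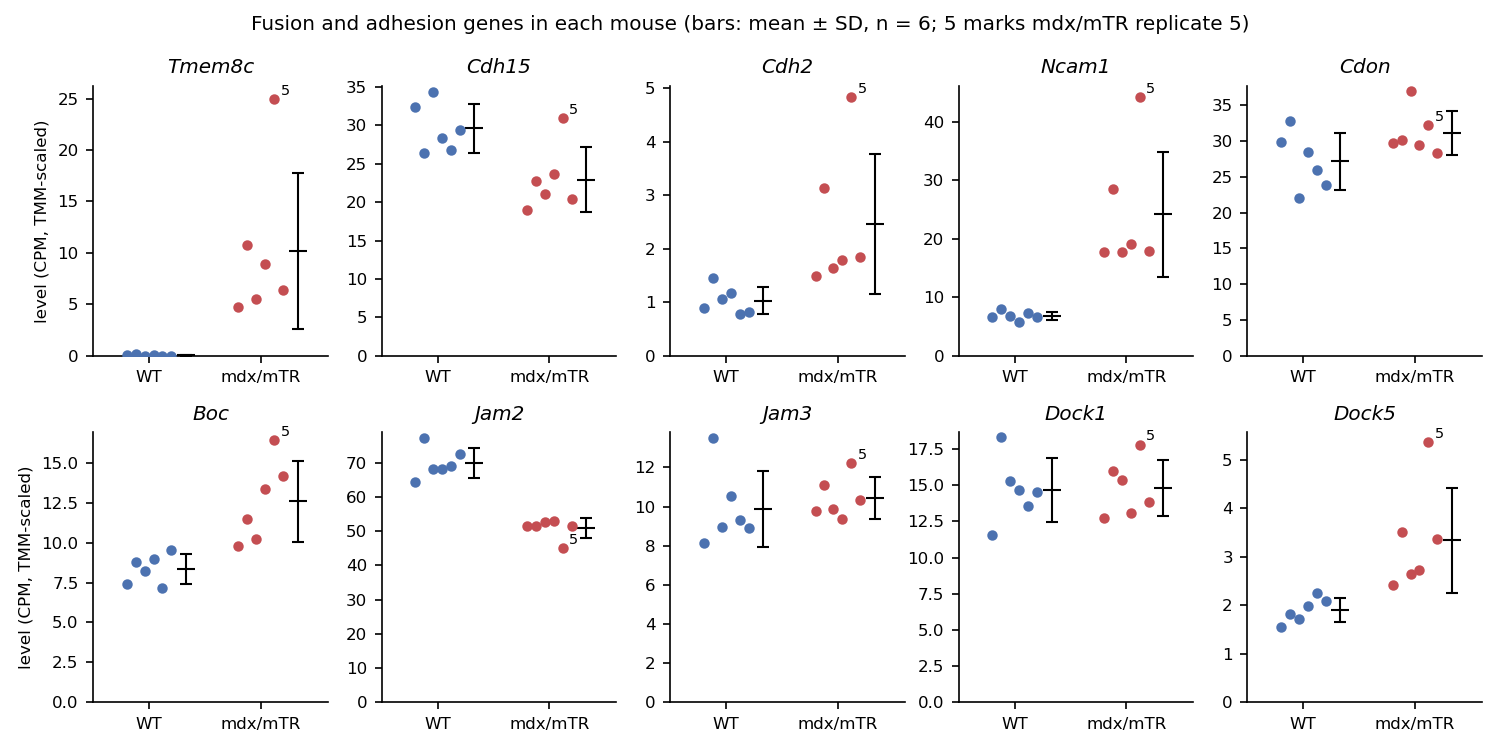
Level of each of the 10 genes in CPM on axes that start at 0, with 1 point per mouse (6 WT, 6 mdx/mTR) and bars for the mean and SD. Tmem8c went from at most 0.167 CPM in WT to at least 4.72 CPM in mdx/mTR, and mdx/mTR replicate 5 was the highest of its group for 8 genes.

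Tmem8c encodes myomaker, the membrane protein without which myoblasts do not fuse, and lies on chromosome 2 (27061636 to 27072179, minus strand, GRCm38). In WT the lowest, median and highest levels were 0, 0.0408 and 0.167 CPM, from 13 counts in the 6 libraries together. In mdx/mTR they were 4.72, 7.67 and 25.0 CPM, from 3176 counts. WT muscle was thus at the edge of detection, with fewer than 3 counts in 4 of its 6 libraries, while every mdx/mTR library lay far above every WT library. The means were 0.0592 ± 0.0664 and 10.2 ± 7.56 CPM (SD, n = 6 each), a ratio of 173, and the fitted log2 fold change was 7.37 ± 0.64 (SE). Without mdx/mTR replicate 5 it was 6.88, and without WT replicate 2, which holds 6 of the 13 WT counts, it was 7.97. The authors' deposited table gives 3.65 for the same gene, a value on the same side and of a smaller size.

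Gm7325 is the table's symbol for Mymx, which encodes myomerger, the small protein that completes the merging of membranes that myomaker begins. It lies on chromosome 17 (45600971 to 45602102, minus strand). Its WT libraries held 0 to 4 counts each, 10 in all, and a mean of 0.0452 ± 0.0508 CPM. The mdx/mTR mean was 2.17 ± 1.04 CPM, with a range of 1.05 to 3.62 CPM. The groups did not overlap, and the log2 fold change was 5.49 ± 0.54 (SE, edgeR adjusted p 4.8e-06). Gm7325 passed the filter on low counts only through its mdx/mTR libraries, as did Tmem8c, so this p-value is given as a description. Both genes that encode the membrane-merging proteins were therefore close to the limit of 3 counts in WT and clearly counted in every mdx/mTR mouse. In the authors' deposited table Gm7325 has 3.77, beside 3.65 for Tmem8c, so the order of the 2 fold changes is not settled.

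Other fusion machinery was followed in a list of 27 genes, of which 24 were tested. In mdx/mTR, 15 of the 24 were higher (62.5%) and 4 lower (16.7%), beside 25.0% and 23.4% of all genes. The other 5 were not called, and the median log2 fold change was 0.34. Plekho1, a pleckstrin-domain protein of differentiating myoblasts, rose from 10.8 ± 1.40 to 36.3 ± 10.7 CPM (log2 fold change 1.75 ± 0.17, edgeR adjusted p 4.5e-06). Anxa1, an annexin that binds phospholipid membranes, rose from 15.3 ± 1.11 to 36.3 ± 7.76 CPM (log2 fold change 1.24 ± 0.12, edgeR adjusted p 4.9e-06). Myoferlin, Myof, a membrane-fusion protein of the ferlin family, rose from 9.90 to 19.2 CPM on average. Among the 4 lower genes was Arhgef7, a Rac and Cdc42 exchange factor, at 78.8 CPM in WT mice and 57.7 CPM in the mutants. The actin regulator Wasl lay at 32.5 and 31.6 CPM and was not called.

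Some markers of satellite cells and myoblasts were higher beside these genes, and others were not called. Of 10 markers, 6 were higher and 0 lower in mdx/mTR, and none was at 0 in a whole group. The 4 not called were Pax7, Calcr, Sdc4 and Des. The groups did not overlap for 3 of the 10, beside 25.2% of all genes. The summed level was 3588 to 3861 CPM in WT mice and 3797 to 4531 CPM in the mutants, and these ranges overlapped. Most of it came from Des (edgeR adjusted p 0.0539). Pax7, the transcription factor that defines satellite cells, averaged 3.03 ± 0.321 and 3.32 ± 0.664 CPM and was not called (log2 fold change 0.13, edgeR adjusted p 0.436). Myog, the transcription factor of differentiating myoblasts, rose from 2.87 ± 0.561 to 15.8 ± 7.28 CPM (log2 fold change 2.46, edgeR adjusted p 1.7e-05). Their part in the levels of Tmem8c and Gm7325 was not tested.

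Cdh15 encodes M-cadherin, the calcium-dependent adhesion protein of satellite cells and myoblasts, on chromosome 8 (122847966 to 122867397, plus strand). In WT it ran from 26.3 through a median of 28.8 to 34.3 CPM. The mdx/mTR values were 18.9, 21.9 and 30.9 CPM. In 5 of the 6 mdx/mTR mice the level was below the lowest WT mouse, and replicate 5, at 30.9 CPM, lay inside the WT range. The means were 29.6 ± 3.17 and 22.9 ± 4.23 CPM, so mdx/mTR was at 77.5% of WT, a log2 fold change of -0.37 ± 0.11. It was -0.47 when mdx/mTR replicate 5 was left out. With library totals alone it was -0.20 and not called. Cdh15 thus lay on the other side of WT from Tmem8c.

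Promoter sequences from RefSeq (GRCm38.p6, 250 bases before to 50 after the start) were matched for 3 of the 10 genes: Cdh15, Cdon and Dock1. Cdh15 and Dock1 are shown because among mdx/mTR mice Cdh15 varied closely with Tmem8c, whereas Dock1 had nearly equal group means. Capitals mark CANNTG, the E-box core that myogenic factors such as Myod1 and Myog can bind, with N any base, which reads the same on both strands. The Cdh15 window is chr8:122848124-122848423 and the Dock1 window chr7:134670437-134670736, both on the plus strand, 5′ to 3′.
Cdh15: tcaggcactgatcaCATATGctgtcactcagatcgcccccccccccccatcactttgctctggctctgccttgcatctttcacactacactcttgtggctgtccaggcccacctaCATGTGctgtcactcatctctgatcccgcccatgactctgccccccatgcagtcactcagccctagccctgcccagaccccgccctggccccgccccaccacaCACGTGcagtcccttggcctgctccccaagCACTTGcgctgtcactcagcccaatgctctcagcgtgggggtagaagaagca
Dock1: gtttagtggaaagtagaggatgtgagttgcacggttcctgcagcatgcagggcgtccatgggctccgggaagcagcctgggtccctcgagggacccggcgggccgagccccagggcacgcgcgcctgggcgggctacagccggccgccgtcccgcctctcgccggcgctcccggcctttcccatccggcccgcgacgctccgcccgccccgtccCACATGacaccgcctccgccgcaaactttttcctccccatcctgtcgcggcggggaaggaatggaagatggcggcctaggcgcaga
The Cdh15 window held 4 E-boxes and the Dock1 window 1, at a GC content of 61.3% and 70.7%. Neither held the form CAGCTG, which also reads the same on both strands, or the form CACCTG, searched on both strands. Among 32851 RefSeq promoters of the same length, 72.3% held CANNTG at least once, 6.49% held it at least 4 times, 16.3% held CAGCTG and 20.2% held CACCTG. The Cdon window (chr9:35451826-35452125) held 0 CANNTG. The Cdh15 and Cdon windows both lie wholly inside the gene as GENCODE draws it, so the Cdh15 E-boxes are not upstream of its outermost start, while the Dock1 window spans the start of Dock1. These are matches of letters and not binding sites.

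Cdh2 encodes N-cadherin, a second cadherin of myoblasts that is also found in nerve and connective tissue, on chromosome 18 (16588877 to 16809246, minus strand). WT levels were 0.784, 0.972 and 1.45 CPM from lowest through median to highest. The mdx/mTR levels were 1.50, 1.82 and 4.84 CPM. The groups touched without overlapping, and replicates 5 and 2 of mdx/mTR (4.84 and 3.13 CPM) stood above the other 4, which were at most 1.85 CPM. From means of 1.03 ± 0.254 and 2.46 ± 1.30 CPM, a ratio of 2.39, the log2 fold change was 1.26 ± 0.30, and 0.95 without replicate 5. The authors' deposited table gives 1.08. The 2 classical cadherins of myoblasts therefore differed from WT in opposite directions, with Cdh15 at the higher level per length in both groups.

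Other cadherins and the catenins that tie them to actin formed a list of 17, of which 12 were tested. In mdx/mTR, 5 of the 12 were higher (41.7%) and 3 lower (25.0%), beside 25.0% and 23.4% of all genes. The other 4 were not called, and the median log2 fold change was 0.03. Cdh4, which encodes R-cadherin, fell from 11.1 ± 4.05 CPM (6.36 to 15.4) to 1.37 ± 0.962 CPM (0.531 to 3.23), a log2 fold change of -3.06 ± 0.37 (edgeR adjusted p 2.3e-05). It was the largest change of this list in size. Vcl, the actin-linking protein vinculin, rose from 151 ± 13.9 to 198 ± 20.4 CPM (log2 fold change 0.39 ± 0.08, edgeR adjusted p 8.1e-04), and Ctnna1, alpha-catenin, from 87.8 ± 5.94 to 110.3 ± 9.66 CPM (log2 fold change 0.33 ± 0.06, edgeR adjusted p 8.7e-04). Ctnna3, another alpha-catenin, lay at 10.3 and 9.23 CPM and was not called. Ctnnb1, beta-catenin, which binds the cadherin tail, averaged 328 and 297 CPM and was called lower (log2 fold change -0.15), but with library totals alone its log2 fold change was 0.01 and it was not called. The count of 5 was not steady: it was 3 with replicate numbers as a block and 3 without WT replicate 1, 5 or 6 or mdx/mTR replicate 5.

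Ncam1 encodes the neural cell adhesion molecule NCAM, an immunoglobulin-type protein of myoblasts, young or denervated fibres, nerve and Schwann cells, on chromosome 9 (49502136 to 49798925, minus strand). WT mice had 5.86, 6.71 and 7.96 CPM at the lowest, median and highest. The mdx/mTR mice had 17.7, 18.5 and 44.2 CPM. All 6 mdx/mTR libraries were above all 6 WT libraries, 4 of them close together at 17.7 to 19.1 CPM and replicates 2 and 5 higher, at 28.5 and 44.2 CPM. The means were 6.86 ± 0.708 and 24.2 ± 10.7 CPM, a ratio of 3.53, and the log2 fold change was 1.82 ± 0.22, or 1.56 without replicate 5. Of the 50-base stretches of its longest coding transcript, 4.39% occur in transcripts of other genes, and 4.81% of its exon length overlaps Gm11149 on the opposite strand.

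Relatives and partners of Ncam1 formed a list of 13, with 12 tested. In mdx/mTR, 6 of the 12 were higher and 2 lower, beside 25.0% and 23.4% of all genes. The other 4 were not called, and the median log2 fold change was 0.27. The count of 6 was not steady: leaving out each mouse gave 4 to 6 higher genes. Among them, Gfra1 was called in 10 and Fyn in 16 of the 20 fits. St8sia2, the sialyltransferase that adds polysialic acid to NCAM, rose from 0.300 ± 0.196 to 1.57 ± 0.961 CPM (log2 fold change 2.38 ± 0.48, edgeR adjusted p 0.00115). The related adhesion gene Nrcam rose from 0.366 ± 0.188 to 1.18 ± 0.152 CPM (log2 fold change 1.67 ± 0.27, edgeR adjusted p 2.2e-04). Sptbn1, a spectrin that NCAM can bind, fell from 341 ± 30.6 to 265 ± 8.37 CPM (log2 fold change -0.36 ± 0.06, edgeR adjusted p 2.4e-04). Ncam2, the closest relative, was at 0.0274 and 0.0292 CPM and was not tested.

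Markers of Schwann cells, which also express Ncam1 and Cdh2, lay lower where both genes were higher. Of 8 markers, 5 were lower in mdx/mTR (62.5%) and 1 higher (12.5%), beside 23.4% and 25.0% of all genes. None was at 0 in a whole group. Their summed level was 83.3 to 102 CPM in WT mice and 60.1 to 79.1 CPM in the mutants, without overlap. The 1 higher marker was Ngfr, at 2.18 and 4.06 CPM. Their part in the levels of Ncam1 and Cdh2 was not tested.

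Cdon and Boc encode related cell-surface proteins that act as co-receptors in cadherin contacts and for hedgehog ligands. Cdon lies on chromosome 9 (35421128 to 35507652, plus strand) and Boc on chromosome 16 (44485049 to 44558897, minus strand). Cdon had 22.1, 27.2 and 32.9 CPM in WT at the lowest, median and highest, and 28.4, 29.9 and 36.9 CPM in mdx/mTR. The groups overlapped, with only mdx/mTR replicate 3 above the highest WT mouse, and the log2 fold change was 0.19 ± 0.09. It was called with library totals alone (0.35) and without WT replicate 2 (0.25), and in none of the other 18 fits.

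Boc had 7.16, 8.52 and 9.52 CPM in WT. In mdx/mTR it had 9.80, 12.4 and 16.4 CPM. The groups lay next to each other without overlap, replicate 5 again the highest and replicate 1 the lowest of the mutants. Means of 8.35 ± 0.922 and 12.6 ± 2.55 CPM gave a ratio of 1.51 and a log2 fold change of 0.59 ± 0.12, or 0.50 without replicate 5. Boc was thus further from WT than its relative Cdon, although the difference between their fold changes was not tested.

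In a list of 21 genes of Cdon and Boc signalling, 20 were tested. Of these, 5 were higher (25.0%) and 8 lower (40.0%) in mdx/mTR, beside 25.0% and 23.4% of all genes. The other 7 were not called, and the median log2 fold change was -0.02. Hhip, which encodes a protein that binds and restrains hedgehog ligands, fell from 1.57 ± 0.345 to 0.625 ± 0.135 CPM (log2 fold change -1.34 ± 0.19, edgeR adjusted p 8.0e-05). Spag9, the scaffold JLP that links Cdon to the kinase p38, fell from 505 ± 19.0 to 395 ± 28.6 CPM (log2 fold change -0.35 ± 0.06, edgeR adjusted p 1.9e-04). Abl1, a kinase that acts with Cdon, fell from 81.9 ± 5.30 to 67.0 ± 4.52 CPM (log2 fold change -0.29 ± 0.06, edgeR adjusted p 8.7e-04), and with library totals alone its log2 fold change was -0.13 (edgeR adjusted p 0.144). Gas1, a further hedgehog co-receptor, rose from 20.9 to 31.1 CPM, and Neo1, the netrin receptor that partners Cdon, lay at 90.3 and 87.7 CPM and was not called. The hedgehog ligand genes were scarce: Shh was below 0.01 CPM in both groups, Ihh at 0.186 and 0.294 CPM and Dhh at 1.03 and 0.854 CPM.

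Markers of fibro-adipogenic progenitors, the connective-tissue cells of muscle, were higher beside Boc. Of 8 such markers, 6 were higher and 0 lower in mdx/mTR, none was at 0 in a whole group, and the summed level was 1762 to 2475 CPM in WT mice and 3565 to 5536 CPM in the mutants, highest in replicate 5. Pdgfra, which defines them, averaged 32.6 ± 3.85 and 61.2 ± 7.37 CPM. Their part in the level of Boc was not tested.

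Jam2 and Jam3 encode junctional adhesion molecules that bind each other between cells. Jam2 lies on chromosome 16 (84774123 to 84825928, plus strand). In WT it had 64.4, 68.5 and 77.2 CPM at the lowest, median and highest. In mdx/mTR it had 45.1, 51.6 and 53.0 CPM. Every mdx/mTR library was below every WT library, and 5 of the 6 lay within 51.5 to 53.0 CPM, with replicate 5 alone below them at 45.1 CPM. The means were 69.9 ± 4.41 and 50.9 ± 2.92 CPM, so mdx/mTR was at 72.9% of WT (log2 fold change -0.46 ± 0.05). It was -0.43 without replicate 5 and -0.30 with library totals alone, and Jam2 was called in all 20 fits.

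Jam3 lies on chromosome 9 (27097384 to 27155421, minus strand). It had 8.14, 9.15 and 13.5 CPM in WT and 9.36, 10.1 and 12.2 CPM in mdx/mTR. All mdx/mTR values lay inside the WT range, whose top was WT replicate 2. The log2 fold change was 0.08 ± 0.11, and 0.19 without that library. Its level is uncertain, since 18.8% of the 50-base stretches of its transcript and 36.2% of its exon length are shared with Gm48796 on the opposite strand, and whether strand was used in counting is not given in the sources used here.

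Of 21 genes of JAM and nectin junctions, 20 were tested. In mdx/mTR, 9 were higher and 4 lower, beside 25.0% and 23.4% of all genes. The other 7 were not called, and the median log2 fold change was 0.20. Leaving out each mouse gave 8 to 10 higher and 3 to 4 lower genes. Pard6g, among the higher genes, was called in 9 of the 20 fits, and Pard3, among the lower, in 10. Mpdz, a scaffold with many PDZ domains at such junctions, fell from 192 ± 9.85 to 136 ± 11.1 CPM (log2 fold change -0.50 ± 0.06, edgeR adjusted p 2.2e-05). Itgb2 and Itgam, the chains of the leukocyte integrin Mac-1 that binds Jam3, were higher. Itgb2 rose from 2.87 ± 0.835 to 14.2 ± 8.90 CPM (log2 fold change 2.30 ± 0.36, edgeR adjusted p 1.7e-04), and Itgam from 4.06 ± 1.14 to 18.4 ± 17.8 CPM (log2 fold change 2.17 ± 0.47, edgeR adjusted p 0.00183). Without mdx/mTR replicate 5, at 53.7 CPM for Itgam against at most 16.7 CPM in the rest, the log2 fold change of Itgam was 1.47. The nectin genes Pvrl1, Pvrl2 and Pvrl3 were all called higher, Pvrl2 from 3.10 to 5.07 CPM, whereas Tjp1, the junction scaffold ZO-1, fell from 63.9 to 53.1 CPM. With library totals alone the log2 fold change of Tjp1 was -0.11 and it was not called.

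Most of the vascular markers listed were lower beside Jam2, which endothelial cells also express. Of 8 endothelial markers, 6 were lower and 1 higher in mdx/mTR, beside 23.4% and 25.0% of all genes. The higher one was Cldn5, and Pecam1 was not called. Of the 6 lower, Kdr, Tie1 and Egfl7 were not called with library totals alone. Egfl7 was called in only 8 of the 20 fits. The summed level was 449 to 562 CPM in WT mice and 348 to 459 CPM in the mutants, an overlap at the edge. Tek, an endothelial receptor, averaged 46.7 ± 3.03 and 32.3 ± 1.59 CPM. Of 8 markers of smooth muscle and pericytes, 5 were lower (62.5%) and 1 higher (12.5%), with summed levels of 846 to 973 and 737 to 828 CPM. Of the lower ones, Tagln, Rgs5 and Kcnj8 were not called with library totals alone. None of these markers was at 0 in a whole group, and their part in the level of Jam2 was not tested.

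Dock1 and Dock5 encode exchange factors that activate Rac during fusion. Dock1, on chromosome 7 (134670654 to 135173639, plus strand), had 11.6, 14.6 and 18.3 CPM in WT and 12.7, 14.6 and 17.8 CPM in mdx/mTR at the lowest, median and highest. The groups covered nearly the same range, and the log2 fold change of 0.01 ± 0.11 changed sign in 4 of the 12 fits that left out 1 mouse, down to -0.05 and up to 0.09. Dock5, on chromosome 14 (67752135 to 67933442, minus strand), had 1.56, 1.90 and 2.25 CPM in WT. Its mdx/mTR levels were 2.42, 3.05 and 5.37 CPM. All mutants lay above all WT mice, replicate 5 well above the rest, which reached 3.51 CPM. Means of 1.90 ± 0.252 and 3.34 ± 1.08 CPM gave a ratio of 1.76 and a log2 fold change of 0.81 ± 0.19, or 0.63 without replicate 5.

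Of 19 genes of the DOCK family and its adaptors, 18 were tested. In mdx/mTR, 7 were higher (38.9%) and 3 lower (16.7%), beside 25.0% and 23.4% of all genes. The other 8 were not called, and the median log2 fold change was 0.18. Dock9, an exchange factor for Cdc42, fell from 72.9 ± 1.38 to 57.7 ± 4.06 CPM (log2 fold change -0.34 ± 0.05, edgeR adjusted p 8.4e-05). Rac2, the Rac of blood cells, rose from 1.77 ± 0.283 to 5.25 ± 2.77 CPM (log2 fold change 1.57 ± 0.28, edgeR adjusted p 4.4e-04), while Rac1, the form found in most cells, lay at 168 and 157 CPM and was not called. Dock2, the DOCK protein of leukocytes, rose from 2.70 to 7.75 CPM. The adaptor Elmo2, which binds Dock1, and Crkl, an adaptor of the same complex, were not called, at 29.9 and 27.5 CPM and at 54.2 and 55.5 CPM.

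**Figure D2:**
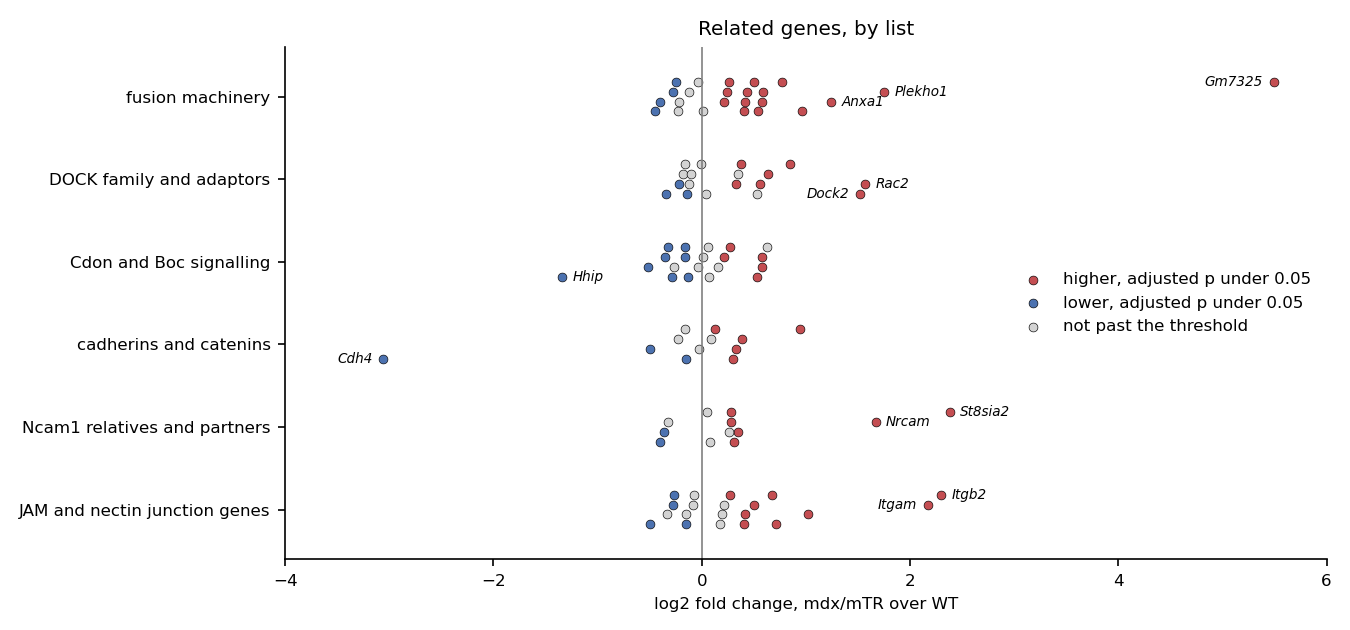
Log2 fold change (mdx/mTR relative to WT) of each tested gene of the 6 lists of related genes, with 1 point per gene, coloured by whether it was called higher, called lower or not called. The median ran from -0.02 for Cdon and Boc signalling to 0.34 for fusion machinery.

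Macrophage markers were higher beside Dock5, Dock2, Rac2, Itgam and Itgb2. Of 8 markers, Itgam among them, 7 were higher (87.5%) and 0 lower, beside 25.0% and 23.4% of all genes. None was at 0 in a whole group. The summed level was 91.5 to 156 CPM in WT mice and 252 to 675 CPM in the mutants. Replicate 5 had 675 CPM and the next mouse 458 CPM. Cd68, a lysosomal protein of macrophages, averaged 2.90 ± 0.739 and 17.1 ± 8.19 CPM. Their part in the level of Dock5 was not tested, and without replicate 5 Dock5 was still called.

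The plot of fold changes puts the 10 genes on 1 scale. By log2 fold change they ran from Tmem8c (7.37) through Ncam1 (1.82), Cdh2 (1.26), Dock5 (0.81), Boc (0.59), Cdon (0.19), Jam3 (0.08) and Dock1 (0.01) to Cdh15 (-0.37) and Jam2 (-0.46). Leaving out mdx/mTR replicate 5 lowered 5 of the higher genes and no call was lost. Tmem8c, Cdh2, Ncam1, Boc, Jam2 and Dock5 were called in all 20 fits, Cdh15 in 19, Cdon in 2, and Jam3 and Dock1 in 0. For genes at moderate counts the authors' deposited table gives similar values, such as -0.37 for Cdh15, -0.46 for Jam2, 0.18 for Cdon and 0.56 for Boc.

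**Figure D3:**
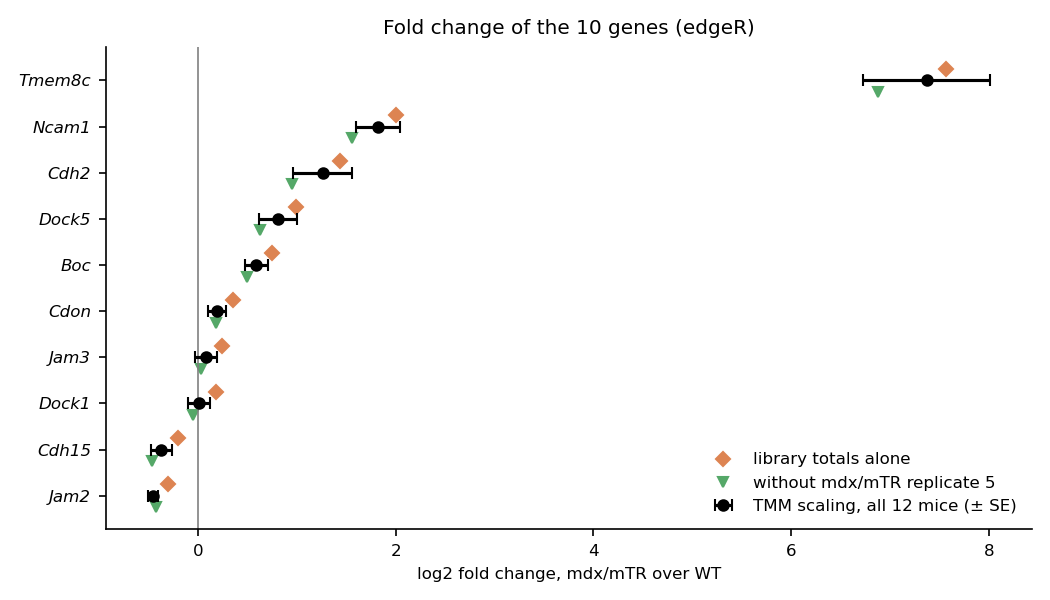
Log2 fold change (mdx/mTR relative to WT) of the 10 genes, as the edgeR estimate with its SE, the value under scaling by totals only, and the value when mdx/mTR replicate 5 is left out. Cdh15 and Jam2 lie below 0, Dock1 and Jam3 near 0, and Tmem8c at 7.37 stands far above the rest.

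Levels between genes were compared per kilobase of exon (CPM per kb, GENCODE M21). In WT the order of mean levels was Jam2 at 11.6, Cdh15 at 9.10, Cdon at 3.52, Jam3 at 3.09, Boc at 1.88, Dock1 at 1.57, Ncam1 at 0.792, Dock5 at 0.156, Cdh2 at 0.127 and Tmem8c at 0.0392 CPM per kb. The ranges over mice overlapped for Cdon (2.86 to 4.26) and Jam3 (2.54 to 4.22) and for Boc (1.61 to 2.14) and Dock1 (1.24 to 1.96). Those of Dock5 (0.128 to 0.185) and Cdh2 (0.0972 to 0.180) overlapped too. Overlap of ranges does not compare genes within the same mouse, here or in mdx/mTR, and that comparison was not made. Jam2 and Cdh15 were separated by 10.7 against 10.6 only. Tmem8c, the lowest, overlapped Cdh2 at its top (0 to 0.111).

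In mdx/mTR the order was Jam2 at 8.42, Cdh15 at 7.05, Tmem8c at 6.77, Cdon at 4.03, Jam3 at 3.26, Boc at 2.82, Ncam1 at 2.79, Dock1 at 1.59, Cdh2 at 0.305 and Dock5 at 0.275 CPM per kb. Tmem8c had moved from position 10 to position 3, with a range of 3.13 to 16.5 that covered those of Jam2, Cdh15 and Cdon. Ncam1 stood beside Boc, with ranges of 2.04 to 5.10 and 2.20 to 3.69. The separated neighbours were Ncam1 and Dock1 (1.36 to 1.91) and Dock1 and Cdh2 (0.186 to 0.600), and all other neighbours in the mdx/mTR order overlapped. Gm7325 averaged 0.0440 CPM per kb in WT and 2.11 in mdx/mTR (1.02 to 3.53). With the longest coding transcript as the length, Tmem8c came at position 2 and Cdh15 at position 3 in mdx/mTR, and Jam3 came before Cdon in both groups. Dock1 then also came before Boc and Cdh2 before Dock5 in WT, and Ncam1 before Boc in mdx/mTR.

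**Figure D4:**
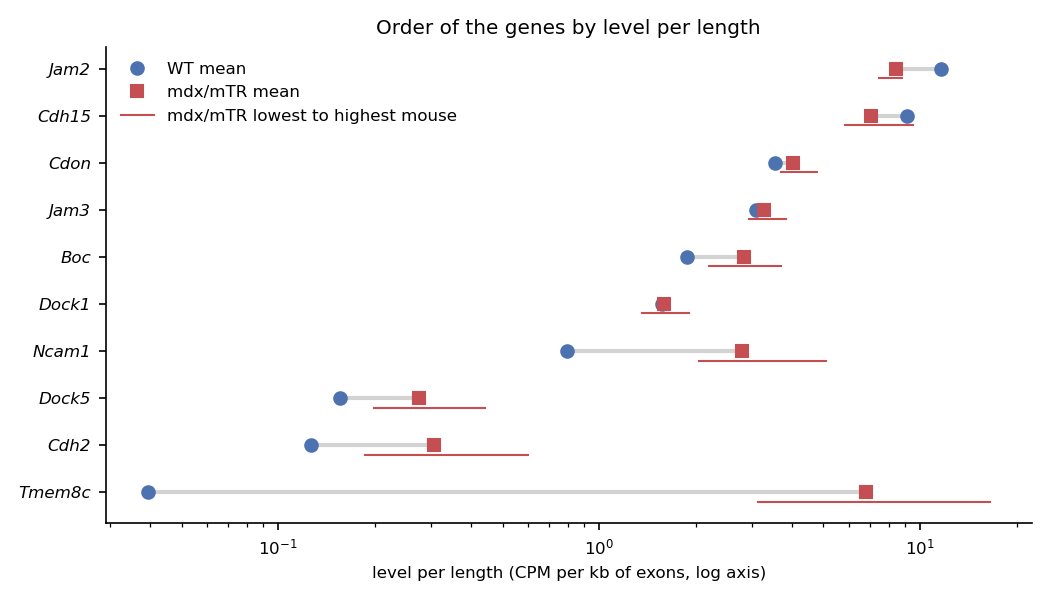
Level per kilobase of exon of the 10 genes in WT and mdx/mTR on a log axis, in CPM per kb, with a circle for the WT mean, a square for the mdx/mTR mean and a line for the range of the 6 mdx/mTR mice. Tmem8c went from 0.0392 in WT to 6.77 in mdx/mTR, and Jam2 was the highest in both groups.

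The genes differed in how much they varied among mdx/mTR mice. The coefficient of variation was 74.0% for Tmem8c, 53.0% for Cdh2, 44.0% for Ncam1 and 32.4% for Dock5, beside a median of 11.7% over all genes tested in mdx/mTR. It was 5.72% for Jam2. Replicate 5 was the highest of its group for all genes but Cdon and Jam2, and it was the lowest for Jam2. Replicate 1 was the lowest for 7 genes: Tmem8c, Cdh15, Cdh2, Ncam1, Boc, Dock1 and Dock5.

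Relations of Tmem8c with 12 genes were computed over the 6 mdx/mTR mice on log2(CPM + 0.5), apart from the contrast between genotypes. Tmem8c and Ncam1 put the mice in the same order, with Pearson r 0.96 (exact permutation p 0.00278, the smallest possible, adjusted over 12 relations 0.0333) and Spearman rho 1.0 (exact permutation p 0.00278, adjusted 0.0333). For Cdh2, r was 0.96 (exact permutation p 0.00556, adjusted 0.0333) and rho 0.94 (exact permutation p 0.0167, adjusted 0.0667). For Cdh15, r was 0.97 (exact permutation p 0.0111, adjusted 0.0444) and rho 0.89 (exact permutation p 0.0333, adjusted 0.1). Without replicates 1 and 5, the mice farthest from the median of Tmem8c, r was 0.84 for Ncam1, 0.81 for Cdh2 and 0.81 for Cdh15 over 4 mice. Cdh15, lower than WT on average, was thus higher in the mutants with more Tmem8c.

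For the other genes r did not pass the adjusted threshold. It was 0.92 for Dock5 (exact permutation p 0.0361, adjusted 0.0867; rho 0.94, exact permutation p 0.0167, adjusted 0.0667), and 0.45 without replicates 1 and 5, so the size of r rests on those mice. The rho of Dock5 was 0.9 without replicate 1 alone and 0.9 without replicate 5 alone. For Gm7325 r was 0.86 (exact permutation p 0.0194, adjusted 0.0583; rho 0.83, exact permutation p 0.0583, adjusted 0.14) and 0.80 without those mice. Boc, Jam3, Dock1, Myog and Pax7 had r from 0.73 to 0.83 (exact permutation p 0.0611 to 0.0944, adjusted 0.104 to 0.113) and rho from 0.66 to 0.77 (exact permutation p 0.103 to 0.175, adjusted 0.176 to 0.21). Without those mice their r was 0.09 for Dock1, 0.17 for Boc, 0.37 for Jam3, 0.56 for Myog and 0.70 for Pax7. For Jam2 it was -0.85 (exact permutation p 0.156, adjusted 0.17) with rho -0.60 (exact permutation p 0.242, adjusted 0.264), and r was 0.01 when replicate 5 alone was left out. Cdon had r 0.03 (exact permutation p 0.786, adjusted 0.786) and rho 0.14 (exact permutation p 0.803, adjusted 0.803), and r was 0.85 without replicate 3 and -0.29 without replicate 5. The same replicate 5 had the most macrophage and fibro-adipogenic marker RNA and the least fibre marker RNA, and the part of these in the relations was not tested.

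**Figure D5:**
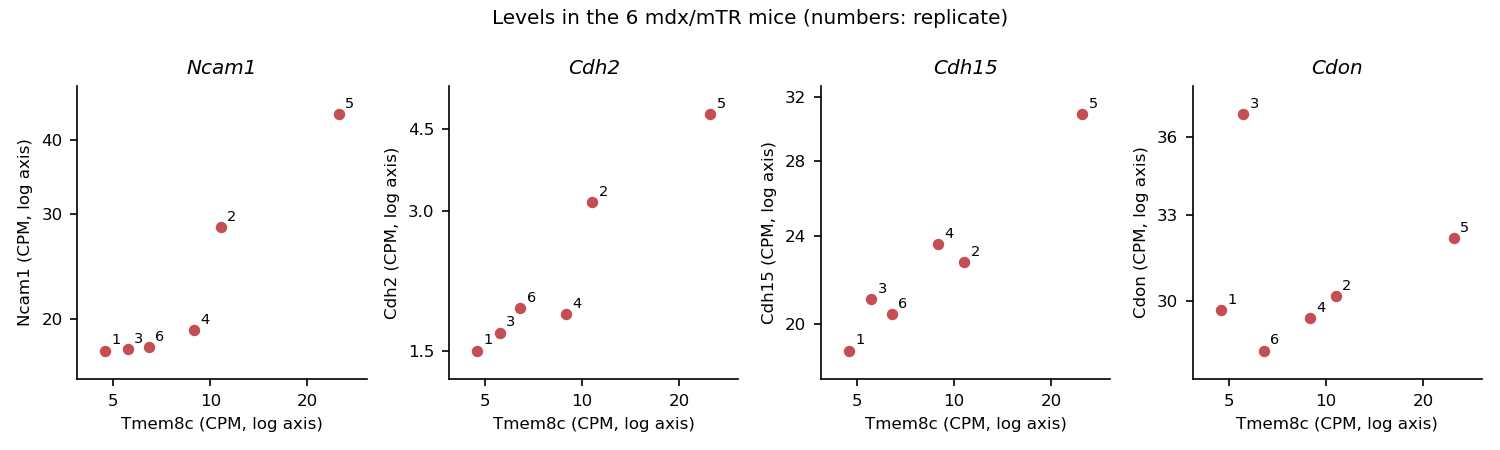
Level of Ncam1, Cdh2, Cdh15 and Cdon against that of Tmem8c in the 6 mdx/mTR mice, in CPM on log axes, with 1 point per mouse numbered by replicate. Ncam1, Cdh2 and Cdh15 were highest in replicate 5, which also has the most Tmem8c (r 0.96, 0.96 and 0.97), while Cdon was highest in replicate 3 (r 0.03).

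Among 9649 genes with a mean of at least 5 CPM in mdx/mTR, those whose log2 CPM followed Tmem8c most closely over the 6 mice included Hps6 (r 0.997), Map3k11 (0.994), Pgm5 (0.993) and Pdgfra (0.991), as a description. Hps6 encodes a protein of lysosome-related organelles, Map3k11 a kinase and Pgm5 a protein of cell contacts in muscle. Each shares with Tmem8c the high value of replicate 5. Cdh15 came 35th, Ncam1 96th, Boc 1310th, Cdon 4323rd and Jam2 9079th. The levels of these neighbours differed between the groups far less than that of Tmem8c: Hps6 was at 5.64 and 6.29 CPM, Map3k11 at 26.9 and 28.4 CPM, and Pgm5 at 39.0 and 59.9 CPM.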

How the data were processed

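Messenger RNA of 12 tibialis anterior muscles was sequenced; RNA was isolated with a column kit and had an integrity number above 9.0, per the labels. The authors deposited whole-number counts per gene symbol, 1 column per mouse, and a table of their own comparison with log2 fold changes. Per the submitters' processing notes, FastQC, STAR, DESeq2 and the mm10 build were used; the counter, annotation, versions and strand handling are not given in the sources used here.

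The deposited counts entered edgeR 4.0.16 (R 4.3.3) unchanged (filterByExpr, TMM, quasi-likelihood F test on group, Benjamini-Hochberg over 13937 genes, threshold 0.05). Filtered genes held 99.97% of counts. The standard error is the log2 fold change divided by the square root of F. Relations used exact two-sided permutation tests in scipy 1.17.1. Groups come from the labels, and nothing beyond separate sample labels says how the mice were raised, so p-values measure the spread between these samples. Replicates differed by more than counting noise (chi-square per degree of freedom 9.14 to 128). A floor of 3 counts covers counting error only.

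The 10 genes, the lists of related genes and markers and the tests were chosen with earlier results of these data known. The text names the 10 genes, Dmd, Mymx, the 3 smallest p-values of each of the 6 related lists, the 5 genes nearest to Tmem8c and defining markers; any other gene was named after its values were seen, and genes withheld from this text are not reported here. Alternatives were 2 other filters on low counts, size factors of DESeq2 1.42.0, library totals alone, the DESeq2 Wald test, limma-voom (limma 3.58.1), replicate number as a block, and each mouse left out; for relations, a pseudocount of 0.1. Length as the longest coding transcript was added after seeing the data. In a simpler simulation over 13937 genes, 200 of them altered at least 2-fold, edgeR found 97.5% of those altered and made 4 false calls. It altered a far smaller share of genes than the 48.3% called here. It also gave every gene the same spread and held no outlying mouse. It therefore does not measure how well smaller changes are found in these data. Lengths, positions and shared 50-base stretches come from GENCODE M21 (GRCm38), and promoters from RefSeq (GRCm38.p6).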

Additional observations from a re-analysis of the deposited data

Results flagged for a closer look

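In 68 groups of 6 mice (the 10 genes, the related genes chosen by p-value and the 7 summed marker lists, in each genotype), 9 had 1 mouse farther from the rest than the 95% critical value of Dixon's test, 0.625, where chance gives 3.4. In 7 of the 9 the mouse was mdx/mTR replicate 5. All 68 groups were read from the same 12 libraries, so these 7 are not separate events. Tmem8c was at 25.0 CPM there, while the rest of its group had 4.72 to 10.8 CPM, Dock5 at 5.37 against 2.42 to 3.51 CPM, and Jam2 at 45.1 against 51.5 to 53.0 CPM, so Tmem8c and Dock5 were high and Jam2 low in 1 mouse. Among related genes the same mouse had 10.5 CPM of Rac2 against 2.95 to 5.58, 30.9 CPM of Itgb2 against 6.55 to 15.1, 53.7 CPM of Itgam against 6.12 to 16.7, and 115 CPM of Mpdz against 138 to 145. The other 2 were Cdh4 in mdx/mTR replicate 3, at 3.23 CPM against 0.531 to 1.41, and Vcl in mdx/mTR replicate 2, at 238 CPM against 180 to 196.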

How the results depend on the processing

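With library totals alone, fewer genes were called lower: 1 of the 10 fusion and adhesion genes in place of 2, and 2 in place of 4 for fusion machinery, 1 in place of 3 for the DOCK family, 4 in place of 8 for Cdon and Boc signalling, 1 in place of 3 for cadherins and catenins, 1 in place of 2 for Ncam1 relatives and 1 in place of 4 for JAM and nectin genes. Over all genes that scaling gave 5596 higher and 1560 lower calls, in place of 3479 and 3257. Replicate numbers showed no steady pairing of the mice. The correlation of same-numbered mice, taken on deviations from the mean of each group, was -0.155 to 0.354. It was over 0.1 for 2 of 6 numbers, and 2 of 6 libraries of each group correlated best with their own number. As a block, replicate numbers left 5 and 2 of the 10 genes called, and 3308 higher and 3112 lower over all genes. They left 3 cadherin genes higher in place of 5. Leaving out each mouse gave 3 to 6 higher cadherin genes. No alternative reversed a called gene among the 10. Of the related genes named as called, 3 lost the call with library totals alone: Abl1 (-0.13), Tjp1 (-0.11) and Ctnnb1 (0.01). The log2 fold change of Ctnnb1 also changed sign. Among vascular markers called lower, Kdr, Tie1, Egfl7, Tagln, Rgs5 and Kcnj8 lost the call under that scaling. Genes under about 3 counts a library, Tmem8c and Gm7325 in WT, have imprecise fold changes.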
